A study of Mus musculus with 12 samples.

Results

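Mouse embryonic stem cells that carried a first hairpin against Kdm5c were compared, gene by gene, with cells of the same parent line that carried a non-targeting hairpin. The comparison took the 4 arrays titled shKdm5c#1 and the 4 titled sh control, cultures A to D of each line, which are 8 of the 12 arrays of the series. All 3 lines of the series descend from IB10, a derivative of the E14 embryonic stem cell line, and were infected with lentivirus made from pLKO-puro, a vector that expresses a short hairpin RNA and a puromycin resistance gene. Per the labels, infected cells were selected with puromycin, surviving colonies were pooled into 1 polyclonal line per hairpin, and cells grew on gelatin in serum with leukemia inhibitory factor (LIF). On every array RNA of a culture was hybridised together with RNA of untreated IB10, the same reference throughout, with the culture in Cy3 for A and C and in Cy5 for B and D. The second hairpin line, shKdm5c#2, with its own 4 cultures, is given only where it places a value.

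The hairpins differ between lines, and so does everything else that 1 pool of colonies may carry, so that hairpin and line cannot be told apart. The p-values rest on how far cultures of a single line varied. The 4 cultures per line limit the precision, and the median standard error of a difference was 0.04 on the log2 scale. Values of single cultures below are log2 ratios of the culture to the IB10 reference with the fitted dye effect removed, and differences are log2 values of shKdm5c#1 minus control with their standard error (SE). A gene was called when its limma p-value, adjusted by Benjamini-Hochberg over all 18322 genes tested, was under 0.05. Cultures of the 2 lines did not overlap for 26.7 percent of all genes, against which a lack of overlap is to be read.

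Kdm5c encodes a demethylase that removes methyl groups from lysine 4 of histone H3 (H3K4), a mark that is rich at active promoters and, in its lower methylated forms, at enhancers. The gene lies on the X chromosome, in mouse and human among the genes that escape X inactivation, and loss of its function is a known cause of X-linked intellectual disability in humans. In embryonic stem cells H3K4 methylation is set by methyltransferase complexes and removed by enzymes of the KDM1 and KDM5 families, and germline genes are among the loci known to respond to loss of KDM5C in mouse.

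The control line carried the oligonucleotide below, which is shown because every difference in this text is set against it. Its length is 57 bases, and capitals mark the 2 arms of 21 bases that pair around a loop of 6 bases.
Non-targeting control hairpin: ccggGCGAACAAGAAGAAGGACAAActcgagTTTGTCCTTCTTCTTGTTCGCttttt

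Kdm5c was lower in the shKdm5c#1 line by the probe that was brightest for the gene. Its log2 ratios to IB10 were -0.57, -0.48, -0.75 and -0.69 in cultures A to D of shKdm5c#1 and 0.05, 0.04, 0.04 and -0.05 in those of the control. The groups did not overlap, and the difference of -0.64 ± 0.05 (SE, adjusted p = 1.66e-07) left 64.1 percent of the control signal. The 2 other Kdm5c probes on the array gave -0.98 and -0.10, and the last of these did not pass the test.

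Of the 10 enzymes listed as H3K4 demethylases or related to them, 4 were called lower and 1 higher, where 18.7 percent of all genes were called, 9.01 percent as higher and 9.66 percent as lower. Beside Kdm5c itself, Kdm1b, the flavin-dependent demethylase known from mouse oocytes, fell by 0.34 on the log2 scale (SE 0.05, adjusted p = 5.33e-05). Its cultures read -0.12, -0.20, -0.20 and -0.06 against 0.19, 0.11, 0.17 and 0.31 in the control, without overlap. Kdm5a, a paralog of Kdm5c, fell by 0.17 (adjusted p = 0.0239) by its brightest probe. Its 5 other probes gave -0.04 to 0.10, the mean of its probes was -0.00872 (adjusted p = 0.877), and the call was also lost without the dye term and in either dye alone. Mina fell by 0.20 (adjusted p = 0.000274). Kdm2b, which binds unmethylated CpG DNA and recruits a Polycomb complex, rose by 0.25 ± 0.04 (adjusted p = 9.28e-05). The paralogs Kdm5b (0.02, adjusted p = 0.847) and Kdm5d (-0.10, adjusted p = 0.552) did not pass. With ratios centred on their median in place of loess, Kdm5c was the 1 member of this list that still passed.

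**Figure D1:**
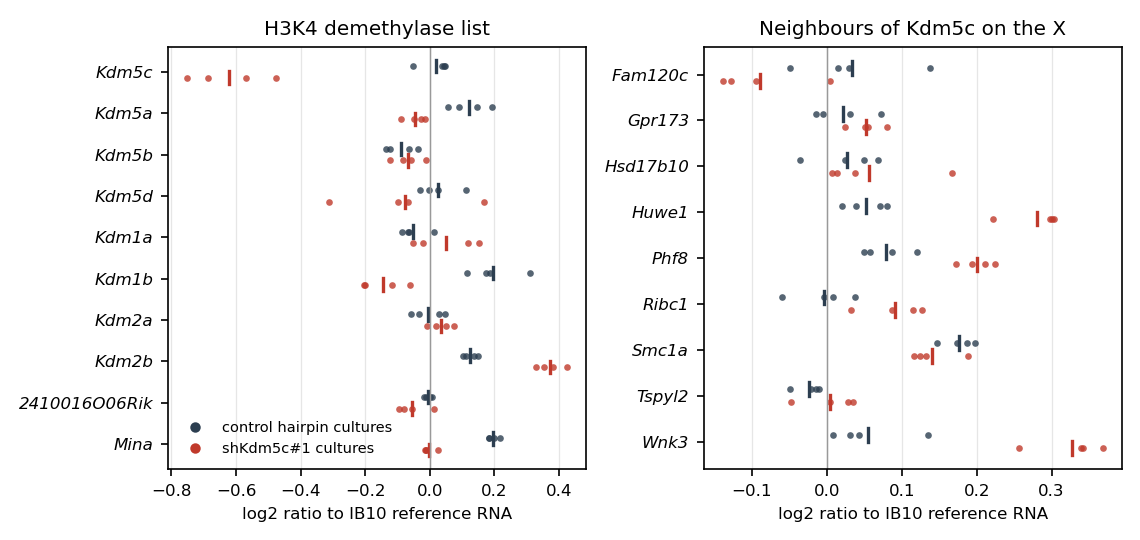
Log2 ratio to IB10 reference RNA (horizontal axis) of each control culture (dark) and each shKdm5c#1 culture (red), with a bar at the mean of 4. Left, the H3K4 demethylase list, where Kdm5c separates the lines most; right, 9 measured neighbours of Kdm5c on the X chromosome, of which Wnk3, Huwe1 and Phf8 were called higher in shKdm5c#1.

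Between 86.0 and 96.4 percent of gene spots stood above background in the sample channel of the 8 arrays, and residual SDs ran from 0.05 to 0.06. Arrays of shKdm5c#2, which share the fit and its estimate of the spread, had residual SDs of 0.05 to 0.08, highest in culture D. Markers of embryonic stem cells were bright in both lines, and all 7 of them lay between percentiles 89.9 and 99.7 of mean intensity. Pou5f1 (-0.02, adjusted p = 0.853), Sox2 (0.01, adjusted p = 0.914), Zfp42, Esrrb and Utf1 did not pass the test. Nanog (-0.22, adjusted p = 0.0247) and Tdgf1 (-0.17, adjusted p = 0.00427) were called lower in shKdm5c#1. With ratios centred on their median in place of loess both calls were lost (adjusted p = 0.839 and 0.897). They were also lost without the dye term and in the Cy5 cultures alone, and that of Nanog in the Cy3 cultures alone and without some single cultures. Mean ratios over the 7 stem cell markers ran from -0.05 to -0.01 in shKdm5c#1 cultures and from -0.04 to 0.10 in control cultures.

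Across the genome, 3419 of 18322 genes were called (18.7 percent), 1650 higher and 1769 lower in shKdm5c#1. Most of these differences were small, with a median size of 0.19 log2, and 72.5 percent of them were under 0.25. Differences of at least 1.5-fold were called for 94 genes, 63 higher and 31 lower, and of at least 2-fold for 13 genes, 10 higher and 3 lower. Calls were rarer among dim genes, from 4.50 percent among the 4581 dimmest genes to 29.5 percent among the 4581 brightest. With ratios centred on their median in place of loess, calls numbered 419, of which 59.4 percent were higher against 48.3 percent with loess, and 418 of the 3419 genes kept their call and sign. Of the 94 genes at 1.5-fold, 91 kept theirs under every alternative that still measured them. Among the 94, 6 belong to the 4581 dimmest genes. These 6 were not tested when the dimmest 25 percent of probes were left out, where 88 genes were called at 1.5-fold.

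The genes that stood highest over the control were led by the keratin pair of simple epithelia. Krt18, a type I keratin, read 0.27, 0.25, 0.24 and 0.14 in shKdm5c#1 cultures and -1.37, -1.25, -1.36 and -1.28 in the control, a 2.91-fold difference (1.54 ± 0.04, adjusted p = 2.2e-12). Krt8, its type II partner, read 0.09, 0.18, 0.07 and 0.00 against -1.24, -1.30, -1.36 and -1.31, a 2.62-fold difference (1.39 ± 0.05, adjusted p = 1.25e-11), and its other probe gave 1.43. For both keratins the shKdm5c#1 cultures lay near the IB10 reference and the control cultures far below it.

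T (Brachyury), the T-box factor of the primitive streak, followed with -0.13, -0.11, 0.02 and 0.06 against -1.44, -1.49, -1.30 and -1.42, a 2.59-fold difference. Efhc2, on the X chromosome, read 0.45, 0.39, 0.43 and 0.44 against -0.80, -0.75, -0.81 and -0.80. Smc1b, the cohesin subunit of meiotic cells, read 0.85, 0.72, 0.87 and 0.92 against -0.28, -0.32, -0.39 and -0.28, so that its cultures lay above IB10 in shKdm5c#1 and below it in the control. Atf4, the transcription factor that amino acid shortage activates, read 0.65, 0.65, 0.60 and 0.65 against -0.49, -0.45, -0.44 and -0.51 (1.11 ± 0.04, adjusted p = 6.36e-12). Cth, which makes cysteine from cystathionine, was higher by 1.08 and Nupr1, a stress-induced nuclear protein, by 1.02.

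Ppp4r4 (1.13), Cldn4 (0.96), Grb10 (0.93), Gadd45b (0.89), Efemp1 (0.89), Fgf5 (0.87), Gbp2 (0.81), Psmb8 (0.81) and Chac1 (0.80) were also among the 20 highest. Parp8 (1.06), Ms4a6d (0.83) and Defa3 (0.83) complete them but rest on dim probes. Parp8 has 3 other probes, which gave -0.03 to -0.02, and the mean of its probes gave 0.245. Second probes of Ms4a6d and Defa3 gave 0.20 and 0.16, and Defa3 belongs to a family of near-identical defensin genes whose RNAs a probe may not separate. The 20 were taken from called genes whose cultures do not overlap between the lines, and their adjusted p-values were 3.75e-07 or lower.

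**Figure D2:**
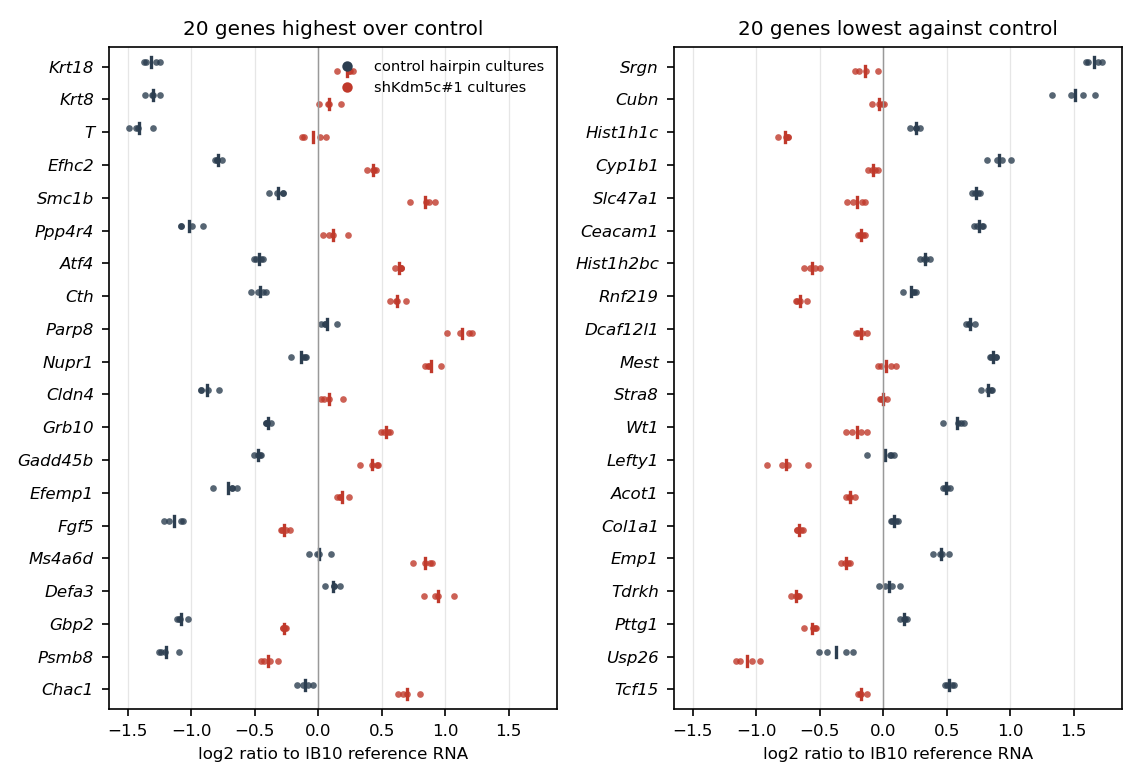
Log2 ratio to IB10 reference RNA of each control culture (dark) and each shKdm5c#1 culture (red) for the 20 genes highest (left) and the 20 lowest (right) in shKdm5c#1 against control, with a bar at the mean of 4. Srgn and Cubn stood above 1.3 in every control culture and near 0 in shKdm5c#1, and Krt18, Krt8 and T stood below -1.2 in every control culture.

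At the other end, Srgn, which encodes the granule proteoglycan serglycin, read -0.19, -0.22, -0.04 and -0.14 in shKdm5c#1 cultures and 1.69, 1.61, 1.59 and 1.72 in the control, 3.49-fold lower (-1.80 ± 0.04, adjusted p = 4.8e-13). Cubn, the endocytic receptor cubilin of visceral endoderm and kidney, read -0.03, -0.09, 0.01 and -0.01 against 1.57, 1.48, 1.32 and 1.66, 2.91-fold lower. Both genes were near the IB10 level in shKdm5c#1 and raised in the control. Hist1h1c, a linker histone, read -0.77, -0.83, -0.75 and -0.75 against 0.26, 0.21, 0.26 and 0.29, and lay below IB10 in shKdm5c#1.

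The 20 lowest went on with Cyp1b1 (-0.99), a cytochrome P450, the transporter Slc47a1 (-0.94), Ceacam1 (-0.93), Hist1h2bc (-0.89), Rnf219 (-0.87), Dcaf12l1 (-0.86), the imprinted gene Mest (-0.84), Stra8 (-0.83), which retinoic acid induces at the start of meiosis, Wt1 (-0.79), the Nodal inhibitor Lefty1 (-0.78), Acot1 (-0.76), Col1a1 (-0.75), Emp1 (-0.75), Tdrkh (-0.73), Pttg1 (-0.72), Usp26 (-0.70) and Tcf15 (-0.69). Other probes of Rnf219 (-0.04), Col1a1 (-0.07 and -0.04) and Tdrkh (0.06 and -0.05) did not pass the test. The mean of the probes gave -0.46 for Rnf219, -0.28 for Col1a1, -0.24 for Tdrkh and -0.43 for Ceacam1.

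Set against the IB10 reference, which is 1 preparation whose own spread is unknown, the control line was called lower for 16 of the 20 highest genes and higher for 17 of the 20 lowest. The shKdm5c#1 line was called higher than IB10 for 14 of the 20 highest and lower for 16 of the 20 lowest. Both sets were picked by the difference between these same arrays, so the directions partly follow from that pick. The shares of all genes called against IB10 are not given here. Over all 3419 called genes the control line was farther from IB10 for 1724 and shKdm5c#1 for 1694.

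A direct contrast of shKdm5c#1 with shKdm5c#2 leaves out the control values but uses the shKdm5c#1 arrays by which the genes were picked. Its directions are therefore partly set by that pick, and the share of all genes called in it is not given here. The contrast was called for all 20 of the highest genes, with shKdm5c#1 higher in 14 and lower in 6. Fgf5 was lower in shKdm5c#1 than in shKdm5c#2 by 1.06, T by 0.69 and Psmb8 by 0.70, while Parp8 was higher by 1.09, Cth by 1.00 and Efhc2 by 0.79. Of the 20 lowest genes, 15 were called, 7 with shKdm5c#1 higher and 8 with it lower. Cyp1b1 (0.08, 95 percent interval -0.02 to 0.18, adjusted p = 0.283), Cubn, Hist1h1c, Tdrkh and Tcf15 were not called between the hairpin lines, which does not show that they act alike.

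Called genes were spread unevenly over chromosomes, as assigned to symbols by the RefSeq gene table of GRCm38.p6. On chromosome 11, 372 of 1451 genes (25.6 percent) were called lower and 59 higher. On chromosome 15, 157 of 682 were called higher and 16 lower. On the X, 125 of 654 were called higher and 43 lower, and on chromosome 8, 55 of 896 were called higher and 126 (14.1 percent) lower. Of 14639 genes on other chromosomes or unplaced, 16.8 percent were called, 1254 higher and 1212 lower.

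The medians of single cultures, taken over genes whose mean intensity was at or above the median of all genes, separated the lines on these chromosomes. For the 810 such genes on chromosome 11, shKdm5c#1 cultures read -0.114, -0.113, -0.102 and -0.11 and control cultures between -0.0117 and 0.00433, a difference of -0.106. For 363 genes on chromosome 15, shKdm5c#1 cultures read 0.0552, 0.0494, 0.0636 and 0.0551 and control cultures between -0.0175 and -0.00581, a difference of 0.0661. For 295 genes on the X, shKdm5c#1 cultures lay between 0.0164 and 0.046 and control cultures between -0.0201 and 0.00562. Chromosome 8 stood above IB10 in both lines, by 0.0693 to 0.0788 in shKdm5c#1 and by 0.113 to 0.125 in the control. Cultures of shKdm5c#2 had means of -0.014 on chromosome 11, -0.00515 on 15, 0.119 on 8 and 0.0784 on 19.

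These 4 chromosomes, with 6 and 19, were those whose culture medians did not overlap between the lines. Their exact two-sided permutation p was 0.0286, the smallest that 4 cultures against 4 can give, and 0.0952 after adjustment over 20 chromosomes, so that the test could not pass the threshold. Taken over the whole chromosome, the difference on 6 (-0.0117) and on 19 (0.0232) was small. On chromosomes outside these 6, differences between the lines ran from -0.0149 to 0.0127.

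**Figure D3:**
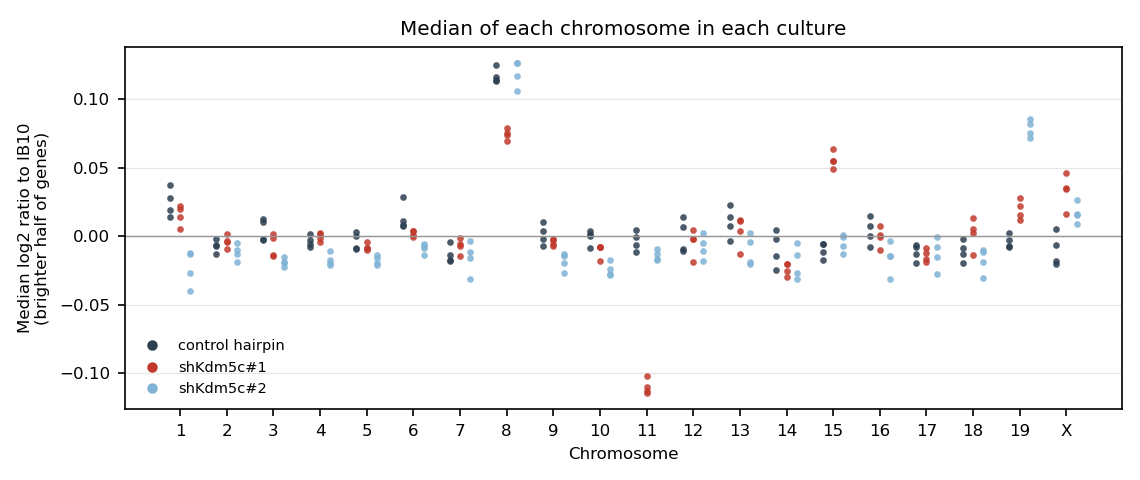
Median log2 ratio to IB10 (vertical axis) of genes at or above the median intensity, by chromosome (horizontal axis), for each culture of the control line (dark), shKdm5c#1 (red) and shKdm5c#2 (light blue). The 4 shKdm5c#1 cultures lie near -0.11 on chromosome 11 and near 0.06 on chromosome 15, apart from all other cultures.

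Along chromosome 11 the shift was present from end to end. In 8 segments of 101 or 102 of these genes in gene order, the median difference lay between -0.125 and -0.0594, and 24 to 49 genes per segment were called lower against 1 to 6 higher. On chromosome 15 the medians fell from 0.10 and 0.12 in the first and second segments, Sepp1 to Rnf19a and Ankrd46 to E430025E21Rik, to 0.03 in segment 8. On the X, segments 1 to 6 had medians between -0.02 and 0.04, segment 7 (Bex2 to Tspyl2) 0.10 and segment 8 (Gpr173 to Mid1) 0.15. In segment 8, shKdm5c#1 cultures had medians of 0.17 to 0.21 and control cultures of -0.02 to 0.07, with 19 of 37 genes called higher and 1 lower. On chromosome 8, segments 1 to 4 had medians between -0.0232 and -0.018, and segments 5 to 8 between -0.1 and -0.0398. On chromosome 6, segment medians ran from 0.0325 in segment 1 to -0.0613 in segment 8. That last segment of chromosome 6 had 20 of 53 genes called lower and 4 higher. Its culture medians were -0.0186 to 0.0169 in shKdm5c#1 and 0.0649 to 0.0833 in the control.

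Kdm5c lies in segment 7 of the X, where 18 of 37 genes were called higher and 1 lower. Among 9 listed neighbours of Kdm5c, Wnk3, a kinase of ion transport, rose by 0.27 (adjusted p = 0.000626), Huwe1, a ubiquitin ligase, by 0.23 (adjusted p = 0.00736) and Phf8, a histone demethylase, by 0.12 (adjusted p = 0.0416). With median centring 0 of these 3 calls held, and Phf8 also lost its call with chromosome medians subtracted (0.10, adjusted p = 0.0791), with the mean of its probes and when any 1 of 7 cultures was left out. The other 6, Fam120c, Gpr173, Hsd17b10, Ribc1, Smc1a and Tspyl2, did not pass, and 0 were called lower. Kdm5c was lower in a segment where most called genes were higher. Of 10 measured Y-linked genes, 3 were called higher, Eif2s3y (0.44), Uty (0.39) and Zfy1 (0.14), which were picked out after their values were seen.

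**Figure D4:**
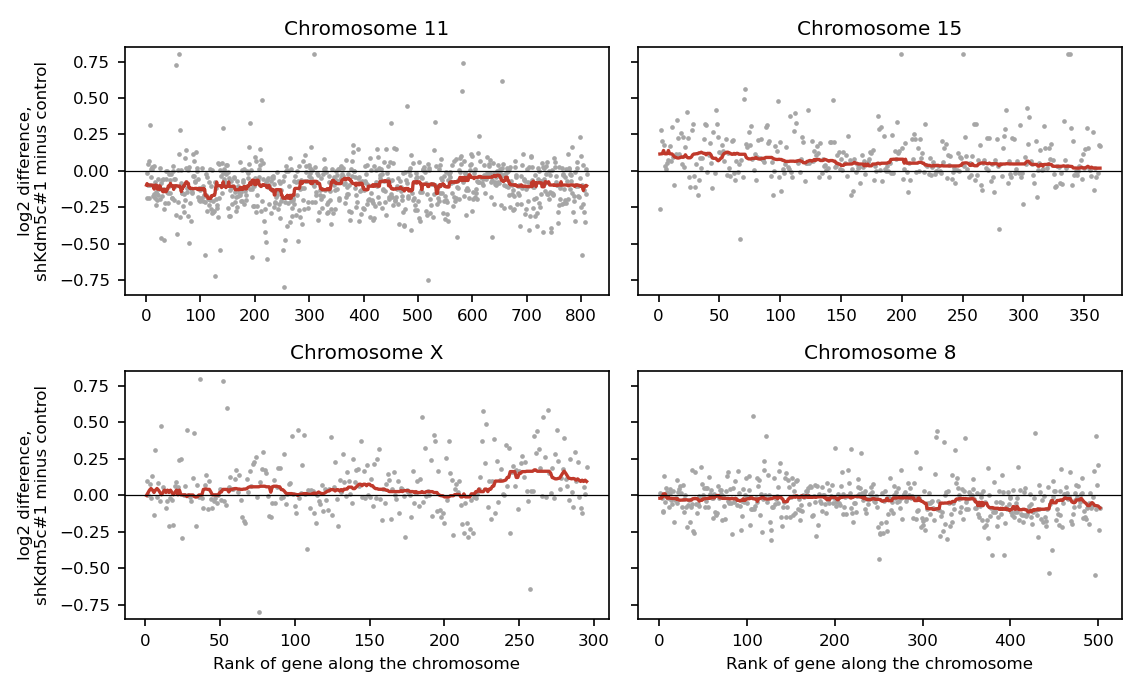
Log2 difference, shKdm5c#1 minus control (vertical axis), of each gene at or above the median intensity by its rank along chromosomes 11, 15, X and 8 (grey points, drawn at 0.8 or -0.8 where larger), with a running median over 41 genes (red). The running median stays below 0 along chromosome 11, is highest at the start of chromosome 15 and rises near the end of the X.

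Of the 40 leading genes, 13 lie on chromosomes 8, 11, 15 or X, which hold 3683 of all 18322 genes tested. Krt18, Krt8, Atf4 and Smc1b are on chromosome 15, and Slc47a1, Col1a1 and Pttg1 on 11. Grb10 and Efemp1, among the highest, also lie on chromosome 11. With the median of each chromosome subtracted in every array, an alternative chosen after the data were seen, 3377 genes were called, 3170 of the 3419 kept their call and sign, and all 94 genes at 1.5-fold kept theirs. Over all genes of chromosome 11 the median difference was only -0.0391, so that genes at 1.5-fold could hardly lose their call this way. The DNA content of the lines was not analysed here, and its part in the shifts was not tested.

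Gene lists are described below by how many of their measured members were called. The counts are to be read against 9.01 percent called higher and 9.66 percent called lower among all genes. The lists, and the promoter letters searched, were written from general knowledge but with earlier results of these data known. The counts therefore describe the lists and do not test them. Some genes stand in several lists. Culture medians overlapped between the lines for the lists of primed epiblast, Wnt, Nodal, antigen presentation, naive pluripotency, meiotic chromosome and basement membrane genes. They also overlapped for the retinoic acid, amino acid transporter and aminoacyl-tRNA synthetase lists, and for the H1 and H2A histones. Named members are the largest called differences of a list in each direction, by the brightest probe of each gene. Of 89 named called genes with several probes, the mean of the probes was over 1.5 times smaller for 56, and no other probe was called with the same sign for 48. None of the 89 had another probe called with the opposite sign, a count of 0. With the mean of the probes 14 lost their call, Aldh1a3, Col3a1, Glul, Hist4h4, Irf8, Kdm5a, Lef1, Pcsk6, Phf8, Postn, Rhbdd1, Rxra, Slc7a6 and Znrf3.

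Of 35 measured keratins of simple epithelia and cell junction genes, 16 rose, 1 fell and 18 were not called, and the list's median ran from -0.07 to -0.02 in shKdm5c#1 cultures and from -0.20 to -0.13 in control cultures, without overlap. Cldn4 and Cldn7, claudins of tight junctions, rose by 0.96 and 0.80. The single member lower was Pkp2, a desmosomal plakophilin, at -0.49 ± 0.03 (adjusted p = 2.5e-08), with -0.51, -0.50, -0.48 and -0.53 against 0.01, -0.03, -0.07 and 0.03. Of the 16 that rose, 4 lie on chromosome 15. With median centring, 9 of the 17 calls held.

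Genes of the Yap and Srf pathways and of the actin cytoskeleton went the same way in number, with 16 of 35 called higher and 4 lower. Anxa2, a calcium-dependent membrane binding protein, rose by 0.45 ± 0.04 (adjusted p = 3.11e-07), S100a11 by 0.42, its relative S100a6 by 0.40 and Amotl2, an angiomotin that binds Yap, by 0.38. Anxa1 fell by 0.31, Ankrd1, a widely used Yap target, by 0.28, Vim by 0.25 and Cyr61, another Yap target, by 0.16. With median centring, 4 of the 20 calls held.

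Among markers of the primed epiblast, the state that follows naive pluripotency, 13 of 29 were called higher and 5 lower. Fgf5, the growth factor that marks the primed state, read -0.26, -0.29, -0.30 and -0.22 in shKdm5c#1 and -1.17, -1.22, -1.06 and -1.08 in the control, so that both lines lay below IB10 and the control lower. Igfbp3 rose by 0.73. Tcf15 fell by 0.69, Foxa2, a forkhead factor of endoderm, by 0.28, Sfrp2, a secreted Wnt inhibitor, by 0.25 and Lef1 by 0.17. The list holds Krt8 and Krt18, so its count is not separate from that of the keratins. With median centring, 9 of the 18 calls held.

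Of 35 genes listed as Wnt targets or pathway members, 10 were called higher and 4 lower. T led with 1.37, followed by Sp5, a direct target of beta-catenin, with 0.05, 0.09, 0.14 and 0.15 against -0.69, -0.73, -0.64 and -0.61 (0.78 ± 0.04). The ligand Wnt3 rose by 0.62 ± 0.04 (adjusted p = 1.81e-08) although it lies on chromosome 11, and Tcf7l2, a nuclear partner of beta-catenin, by 0.40. The 6 other Tcf7l2 probes gave -0.07 to 0.19, and the mean of its probes was 0.0843. The secreted inhibitor Dkk1 fell by 0.45, the receptor-degrading ligase Znrf3 by 0.26, Lef1 by 0.17 and Nkd2 by 0.16. With median centring, 5 of the 14 calls held. The letters CTTTGA on either strand, which Tcf and Lef factors bind, stood in 16.7 percent of 24 promoters of the list and 16.2 percent of all 27025 promoters.

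Of 25 genes of the Nodal pathway, 5 were called higher and 5 lower, and the paired inhibitors Lefty1 and Lefty2 moved apart. Lefty1 read -0.91, -0.75, -0.59 and -0.79 in shKdm5c#1 against 0.06, 0.05, 0.08 and -0.13 in the control (-0.78 ± 0.08, adjusted p = 1.92e-06). Lefty2 read -0.40, -0.24, -0.19 and -0.39 against -0.56, -0.57, -0.55 and -0.65 (0.28 ± 0.05, adjusted p = 0.000633). Each gene separated the lines without overlap, as did 26.7 percent of all genes. The activin antagonist Fst rose by 0.59, the coreceptor Cfc1 by 0.22 and the convertase Pcsk6, which cleaves Nodal, by 0.17. The activin subunit Inhbb fell by 0.46, the ligand Gdf1 by 0.28 and the Smad corepressor Skil by 0.20. With median centring, 3 of the 10 calls held.

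**Figure D5:**
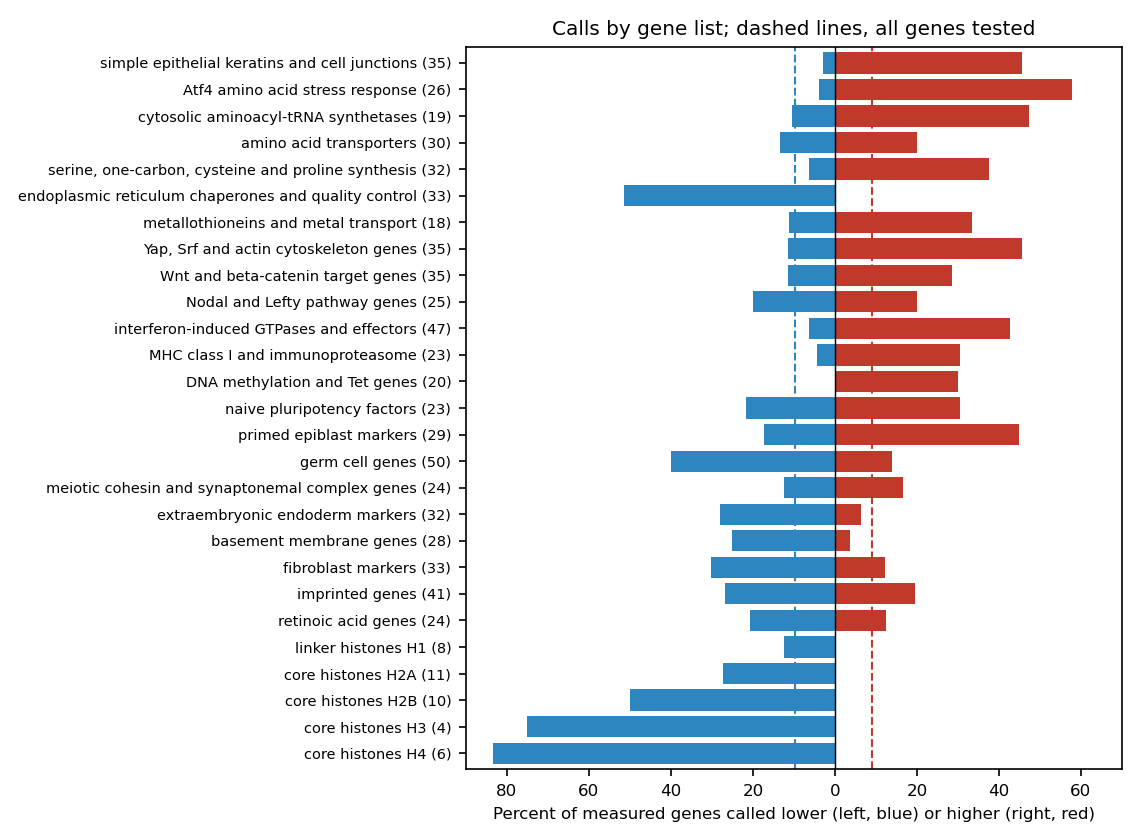
Percent of the measured genes of each list (number in brackets) called lower (blue, left) or higher (red, right) in shKdm5c#1 against control, with dashed lines at 9.66 and 9.01 percent for all genes tested. Endoplasmic reticulum chaperones and germ cell genes extend to the left, and keratins, Atf4 response genes and interferon effectors to the right.

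Of 26 genes of the amino acid stress response, which Atf4 drives, 15 were called higher and 1 lower, Rhbdd1 at -0.12, and 10 were not called. The list's median ran from 0.13 to 0.18 in shKdm5c#1 cultures and from -0.08 to -0.02 in control cultures. Beside Atf4 itself, Nupr1 read 0.97, 0.87, 0.84 and 0.87 against -0.12, -0.11, -0.10 and -0.22, and Chac1, which degrades glutathione, read 0.67, 0.63, 0.69 and 0.80 against -0.05, -0.17, -0.12 and -0.08. Gadd45b, a stress-induced growth arrest protein, rose by 0.89 ± 0.06 (adjusted p = 5.83e-08). With median centring, 9 of the 16 calls held.

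The genes that make and load amino acids showed related counts. In serine, one-carbon, cysteine and proline synthesis 12 of 32 rose and 2 fell, with Cth at 1.08, Asns, asparagine synthetase, at 0.61, Psat1 of serine synthesis at 0.33 and Gpt2 at 0.30, and with Glul at -0.14 and Prodh, which degrades proline, at -0.16. With median centring, 4 of these 14 calls held. Of 19 cytosolic aminoacyl-tRNA synthetases 9 rose and 2 fell, and of 16 mitochondrial ones 1 rose and 0 fell. Iars (0.26), Nars (0.25), Cars (0.23) and Tars (0.23) stood highest among the cytosolic enzymes, and Rars, on chromosome 11, fell by 0.29 and Yars by 0.23. None of the calls for the cytosolic synthetases held with median centring, where the count was 0 of 11.

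Of 30 amino acid transporters 6 rose and 4 fell. Slc7a1, a carrier of arginine and lysine, rose by 0.48 ± 0.04 (adjusted p = 9.68e-08), with 0.76, 0.74, 0.68 and 0.72 against 0.24, 0.29, 0.22 and 0.24. A second Slc7a1 probe of nearly the same brightness gave -0.07 and did not pass, and the mean of both was 0.205. Slc38a2, Slc38a1 and Slc1a3, carriers of glutamine or glutamate, rose by 0.42, 0.29 and 0.28, and all 3 lie on chromosome 15. Slc36a1, a proton-coupled carrier on chromosome 11, fell by 0.48. With median centring, 2 of the 10 calls held.

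Promoters bear on this list through the amino acid response element, which Atf4 binds. Its core was searched as TGATGNAA on both strands in the window from 250 bases before to 50 bases after each gene's start, from RefSeq with the GRCm38.p6 build. It stood in 6 of 24 promoters of the list (25.0 percent), in 5 of 15 of the members called higher, and in 4.06 percent of all 27025 promoters. The promoters of the strongest 2 called members with a match are shown, Nupr1 at chr7:126625421-126625720 on the minus strand and Chac1 at chr2:119350992-119351291 on the plus strand, with the matched letters in capitals.
Nupr1: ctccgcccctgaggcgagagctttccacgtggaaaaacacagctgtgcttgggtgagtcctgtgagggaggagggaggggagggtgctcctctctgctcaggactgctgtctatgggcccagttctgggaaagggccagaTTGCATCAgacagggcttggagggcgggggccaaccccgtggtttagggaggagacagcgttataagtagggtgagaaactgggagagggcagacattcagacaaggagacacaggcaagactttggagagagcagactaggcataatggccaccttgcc
Chac1: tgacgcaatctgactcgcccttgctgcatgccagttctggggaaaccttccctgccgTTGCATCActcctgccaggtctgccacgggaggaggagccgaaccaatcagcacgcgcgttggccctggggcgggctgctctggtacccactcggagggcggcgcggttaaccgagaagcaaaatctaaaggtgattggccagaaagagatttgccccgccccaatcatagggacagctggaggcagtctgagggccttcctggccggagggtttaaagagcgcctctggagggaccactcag
In both, the match reads on the strand opposite to the gene. A match is a description of the letters and not a measured binding site.

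Of 33 chaperones and quality control genes of the endoplasmic reticulum, which the unfolded protein response induces, 0 rose, 17 fell and 16 were not called, with a median difference of -0.13. The list's median ran from -0.13 to -0.07 in shKdm5c#1 cultures and from -0.02 to 0.02 in control cultures. Xbp1, the transcription factor of that response, read -0.47, -0.41, -0.42 and -0.53 against -0.02, 0.04, 0.11 and -0.05 (-0.47 ± 0.05, adjusted p = 5.46e-06). Dnajc3, a luminal cochaperone, fell by 0.34, Derl2, of the degradation channel, by 0.28 and Armet, the secreted factor now named Manf, by 0.26. Of the 17, 4 lie on chromosome 11, and 16 kept their call with chromosome medians subtracted. With median centring 0 of the 17 calls held. The letters CCACG, shared by endoplasmic reticulum stress elements, stood on either strand of 85.2 percent of the list's 27 promoters and 32.7 percent of all promoters.

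Of 18 genes of metal binding and transport 6 rose and 2 fell. The metallothioneins Mt1 (0.44 ± 0.07, adjusted p = 0.000302) and Mt2 (0.40 ± 0.09, adjusted p = 0.00556), which bind zinc and copper, rose although they lie on chromosome 8. The iron exporter Slc40a1 rose by 0.52 and the zinc importer Slc39a4 by 0.48, and the carriers Slc39a14 and Slc30a4 fell by 0.23 and 0.15. With median centring, 3 of the 8 calls held.

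Of 47 interferon-induced effectors, 20 rose, 3 fell and 24 were not called, with list medians from -0.07 to -0.04 in shKdm5c#1 cultures and from -0.17 to -0.12 in control cultures. Gbp2, a guanylate-binding protein of host defence, read -0.26, -0.28, -0.26 and -0.28 against -1.09, -1.03, -1.10 and -1.11 (0.81 ± 0.03, adjusted p = 1.39e-10). Gbp1 and Gbp3 rose by 0.69 and 0.48, and Igtp, an immunity-related GTPase on chromosome 11, by 0.49. All 4 lay below IB10 in both lines and lower in the control. The chemokine Cxcl10 fell by 0.32, Socs3, a feedback inhibitor of LIF signalling, by 0.29 and Irf8 by 0.17. With median centring, 8 of the 23 calls held. In the direct contrast with shKdm5c#2, Gbp2 was lower by 0.53 and Gbp3 by 0.64.

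In the antigen presentation list 7 of 23 rose and 1 fell. Psmb8, a catalytic subunit of the immunoproteasome, rose by 0.81, and its second probe gave 0.47. Erap1, which trims peptides, rose by 0.35, Psme1 by 0.18 and the peptide transporter Tap1 by 0.16, while Psmb10, on chromosome 8, fell by 0.13. Class I genes are near-identical copies that probes may not separate. With median centring, 2 of the 8 calls held.

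Promoters of the interferon list were searched for GAAA, any 2 bases and GAAA again, the core of the element that interferon-activated factors bind, on both strands. It stood in 22 of 37 promoters (59.5 percent), in 12 of 16 of the members called higher and in 1 of 3 called lower, against 3.49 percent of all promoters. Gbp2 at chr3:142620413-142620712 and Gbp1 at chr3:142594597-142594896, both on the plus strand of GRCm38.p6, are shown as the strongest called members with a match, which is in capitals.
Gbp2: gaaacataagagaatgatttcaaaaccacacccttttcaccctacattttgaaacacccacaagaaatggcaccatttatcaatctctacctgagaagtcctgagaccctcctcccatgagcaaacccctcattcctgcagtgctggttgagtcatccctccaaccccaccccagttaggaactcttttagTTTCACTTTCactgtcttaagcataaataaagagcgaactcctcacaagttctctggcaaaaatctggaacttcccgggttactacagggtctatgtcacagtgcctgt
Gbp1: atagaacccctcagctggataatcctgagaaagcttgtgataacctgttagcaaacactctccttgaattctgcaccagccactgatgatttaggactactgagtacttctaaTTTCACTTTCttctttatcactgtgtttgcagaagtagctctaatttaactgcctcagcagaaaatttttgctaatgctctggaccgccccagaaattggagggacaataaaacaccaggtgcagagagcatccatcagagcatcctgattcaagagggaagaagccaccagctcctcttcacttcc
The matched letters were identical in the 2 promoters and read on the strand opposite to the gene.

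Germ cell genes were more often lower than higher. Of 50 measured, 20 fell and 7 rose, with list medians from -0.08 to -0.05 in shKdm5c#1 cultures and from -0.03 to 0.02 in control cultures. Stra8 read -0.02, -0.02, 0.03 and 0.00 against 0.85, 0.85, 0.82 and 0.77, so that the control stood above IB10. Ddx4, the germ cell RNA helicase Vasa, read -0.39, -0.44, -0.49 and -0.45 against 0.17, 0.15, 0.17 and 0.19 (-0.61 ± 0.03, adjusted p = 4.46e-09), here with shKdm5c#1 below IB10. Tdrkh, a Tudor protein of the piRNA pathway, fell by 0.73 and Usp26, an X-linked testis gene, by 0.70. Tdrd12, another Tudor protein, rose by 0.62, the RNA-binding protein Dazl by 0.57, Prdm1, which specifies primordial germ cells, by 0.51 and the receptor Kit by 0.46.

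With median centring, 13 of these 27 calls held. In the direct contrast with shKdm5c#2, Dazl was higher by 1.04, Stra8 by 0.70 and Ddx4 by 0.48, Usp26 was lower by 1.07, and Tdrkh was not called (0.06, adjusted p = 0.394).

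The E-box CACGTG, known in mouse as the site through which Mga and Max hold germline promoters silent, stood in 14 of 44 promoters of the list (31.8 percent) against 7.24 percent of all promoters. It was in 7 of 16 promoters of members called lower and in 0 of 7 of those called higher. The strongest 2 called members with a match are shown with the site in capitals, Ddx4 at chr13:112652261-112652560 on the minus strand and Tdrd1 at chr19:56825959-56826258 on the plus strand of GRCm38.p6, the first of 3 promoters listed for Tdrd1.
Ddx4: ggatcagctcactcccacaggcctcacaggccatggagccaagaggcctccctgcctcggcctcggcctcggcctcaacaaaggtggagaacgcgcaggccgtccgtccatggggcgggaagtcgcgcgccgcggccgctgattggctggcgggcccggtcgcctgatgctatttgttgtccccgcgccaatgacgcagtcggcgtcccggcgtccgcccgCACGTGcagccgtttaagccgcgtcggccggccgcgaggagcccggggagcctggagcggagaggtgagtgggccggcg
Tdrd1: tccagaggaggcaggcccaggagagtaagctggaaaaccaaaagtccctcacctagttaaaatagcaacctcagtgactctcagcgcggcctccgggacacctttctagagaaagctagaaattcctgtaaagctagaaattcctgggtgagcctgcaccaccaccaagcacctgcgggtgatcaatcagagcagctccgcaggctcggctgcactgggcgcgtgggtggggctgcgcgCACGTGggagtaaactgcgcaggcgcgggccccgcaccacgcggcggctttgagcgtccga
Tdrd1, a Tudor scaffold of the piRNA pathway, fell by 0.39.

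Genes of meiotic chromosome structure were called in both directions, 4 higher and 3 lower of 24. Smc1b led with 1.16, and Stag3, another cohesin subunit of meiotic cells, read 0.53, 0.56, 0.54 and 0.58 against -0.15, -0.12, 0.04 and -0.12 (0.64 ± 0.04, adjusted p = 4.19e-08). Syce2 (0.18) and the recombinase Dmc1 (0.17) were also higher. Syce1, of the synaptonemal complex, fell by 0.62, Gm1564 by 0.46 and 1700007E06Rik, now named Syce3, by 0.31. Smc1b, Dmc1 and 1700007E06Rik lie on chromosome 15. With median centring, 5 of the 7 calls held.

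Of 32 markers of extraembryonic endoderm, 9 fell, led by Srgn and Cubn, 2 rose and 21 were not called. Dab2, an endocytic adaptor of visceral endoderm, read 0.04, -0.05, 0.01 and -0.02 against 0.65, 0.62, 0.63 and 0.59 (-0.63 ± 0.04, adjusted p = 1.18e-08). Gata6, the primitive endoderm factor, read 0.08, -0.03, 0.11 and 0.10 against 0.64, 0.64, 0.59 and 0.70 (-0.58 ± 0.04, adjusted p = 1.77e-08). By these probes the control cultures were above IB10 and the shKdm5c#1 cultures near it. The 3 other Dab2 probes gave -0.19, 0.05 and 0.02, with a mean over probes of -0.187, and the 2 other Gata6 probes gave 0.02 and -0.26, with a mean of -0.273. Apoe rose by 0.43 and Amot by 0.16. Basement membrane genes, which this tissue makes in quantity, were called lower for 7 of 28 and higher for 1, with the laminin chain Lama1 at -0.65, the prolyl hydroxylases P4ha2 and P4ha1 at -0.59 and -0.29, the collagen chaperone Serpinh1 at -0.40 and the laminin chain Lama5 at 0.50. With median centring, 8 of the 11 endoderm calls and 4 of the 8 basement membrane calls held.

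Of 5 defining markers of primitive and visceral endoderm, 2 were called lower by the brightest probe, Gata6 and Sox7 (-0.42), and 0 higher. Their mean ratio ran from 0.00 to 0.06 in shKdm5c#1 cultures and from 0.20 to 0.26 in control cultures. By their brightest probes Gata4, Sox17 and Afp did not pass, and Afp lay at percentile 6.57 of intensity. A dimmer Sox17 probe gave -0.87 (adjusted p = 4.94e-09 in the fit over probes) and the third -0.03, and the mean of the Sox17 probes, -0.32, passed. A dimmer Gata4 probe gave -0.20 (adjusted p = 0.0021 in the fit over probes). The other Sox7 probe gave -0.02 and did not pass, and the mean of both Sox7 probes was -0.221. The part of such cells in these differences was not tested, and in bulk RNA fewer cells of a type and less RNA per cell cannot be told apart.

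Fibroblast markers were lower for 10 of 33 and higher for 4. Col1a1 read -0.68, -0.64, -0.65 and -0.68 against 0.12, 0.06, 0.07 and 0.10, Col1a2 fell by 0.41, Col3a1 by 0.34 and Snai2 by 0.34, and Thy1 rose by 0.36, Fn1 by 0.23, Col5a1 by 0.18 and Twist2 by 0.10. With median centring, 3 of these 14 calls held. Over 7 defining fibroblast markers the mean ratio was -0.22 to -0.17 in shKdm5c#1 cultures and -0.03 to 0.03 in control cultures. By their brightest probes 5 were called lower and 1 higher, and Lum and Postn lay at percentiles 18.6 and 18.7 of intensity. Other probes of the lower markers Col1a1, Col1a2, Col3a1, Dcn and Postn gave -0.07 to 0.09 and did not pass the test. The second Postn probe was nearly as bright and gave 0.05. The second probe of Thy1, the higher marker, gave 0.25 and passed. Of 4 trophectoderm markers 3 were higher, Eomes (0.31), Cdx2 (0.23) and Gata3 (0.20), with means of 0.07 to 0.15 in shKdm5c#1 and -0.12 to -0.06 in control cultures, and Elf5 was above background in 1 of 4 shKdm5c#1 and 2 of 4 control cultures. With median centring these calls were lost (adjusted p = 0.0976, 0.0703 and 0.179), as they were in the Cy5 cultures alone. Of 3 neuronal markers, Stmn2 was higher (0.17, a call lost with median centring), with means of -0.03 to 0.00 in shKdm5c#1 and -0.08 to -0.05 in the control. The part of cells of these kinds was not tested.

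In each of 5 histone families genes were called lower and 0 were called higher. Of 6 H4 genes 5 fell, of 4 H3 genes 3, of 10 H2B genes 5, of 11 H2A genes 3 and of 8 H1 genes 1. Hist1h2bc read -0.54, -0.62, -0.58 and -0.50 against 0.33, 0.32, 0.29 and 0.37, Hist3h2a fell by 0.60, Hist3h2bb by 0.49, Hist1h4i by 0.38 and Hist1h3a by 0.22. Hist3h2a and Hist3h2bb lie on chromosome 11. Histone genes are close copies of one another, so a probe may read several, and with median centring 4 of the 5 H2B, 1 of the 5 H4, 0 of the 3 H3, 2 of the 3 H2A and the 1 H1 call held. The H1 share of 12.5 percent is near the 9.66 percent of all genes.

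Naive pluripotency factors were called in both directions, 7 higher and 5 lower of 23. Gbx2 read 0.45, 0.32, 0.46 and 0.39 against 1.00, 1.07, 0.93 and 0.95 (-0.58 ± 0.04, adjusted p = 7.85e-08), above IB10 in both lines. Dppa3, which protects methylated DNA in the early embryo, fell by 0.38, and Klf4 by 0.37. Tcfcp2l1, a transcription factor of the naive network, rose by 0.36, Dppa5a by 0.27, Fgf4 by 0.23 and Manba by 0.22. With median centring, 1 of the 12 calls held.

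Genes of DNA methylation were called higher for 6 of 20 and lower for 0. Dnmt3l, the cofactor of the de novo methyltransferases, read 0.36, 0.43, 0.42 and 0.36 against -0.14, -0.24, -0.11 and -0.16 (0.56 ± 0.05, adjusted p = 6.87e-07). Hells, a chromatin remodeller needed for methylation, rose by 0.42 and Dnmt3b by 0.29. The list also holds Gadd45b. With median centring, 1 of the 6 calls held, that of Gadd45b. Those of Dnmt3l, Hells and Dnmt3b were lost (adjusted p = 0.0762, 0.062 and 0.232).

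Of 41 imprinted genes 8 rose and 11 fell. Grb10, an adaptor that restrains growth factor signalling, read 0.55, 0.56, 0.52 and 0.50 against -0.41, -0.41, -0.37 and -0.40, and its 2 other probes gave 0.55 and 0.37. Mest read 0.10, -0.05, -0.02 and 0.06 against 0.84, 0.89, 0.85 and 0.89. Sfmbt2 rose by 0.59, Cd81 and Ube3a by 0.20 each, and Plagl1, Dhcr7 and Dlk1 fell by 0.39, 0.34 and 0.33. Among 24 retinoic acid genes 3 rose and 5 fell, with Cyp26a1, which degrades retinoic acid, at 0.54, and Aldh1a3, which makes it, at -0.38. A second, dimmer Aldh1a3 probe gave 0.29 and did not pass. With median centring, 5 of the 19 imprinted and 3 of the 8 retinoic acid calls held.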

How the data were processed

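RNA of 4 cultures per line was hybridised with IB10 reference RNA on 2-colour arrays, 12 in all, of which 8 enter this comparison. Per the file headers, the deposited scanner files give spot intensity and background intensity per channel, of which channel 1 is Cy5 and channel 2 Cy3. The authors' normalized intensity of each channel, deposited per array, served as an alternative. The deposited value table holds log2 ratios of Cy5 over Cy3, matched by spot position to those intensities (r = 1 on each of the 12 arrays, column medians from -0.00265 to 0.0164). The genome build of the probes is not given in the sources used here. In limma 3.58.1 (R 4.3.3), intensities were corrected by normexp with an offset of 50 and normalized by loess within each array, with control spots at weight 0. Ratios were turned to sample over reference, and the brightest probe stood for each of 18322 genes. All 12 arrays entered 1 linear model with 3 lines and a dye term, 8 residual degrees of freedom, empirical Bayes moderation and Benjamini-Hochberg adjustment.

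The fit was tested on simulated data. The RefSeq table of GRCm38.p6 gave chromosomes and gene order, and promoters came from RefSeq. The members, gene lists and tests were chosen with earlier results of these data known. Named genes are Kdm5c with its relatives and neighbours, the 20 highest and 20 lowest called genes without overlap, up to 4 called members a direction of each described list, cell type markers, and genes above background in 1 line alone. Alternatives changed background correction, normalization, probe choice, dye handling, arrays used, array weights and the prior, and left out each culture.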

Additional observations from a re-analysis of the deposited data

Results flagged for a closer look

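In 26 of 428 groups of 4 cultures, 1 culture stood apart from the other 3 by Dixon's criterion at its 95 percent level, where chance gives about 1 in 20 groups. Values are log2 ratios to IB10. Culture A of the shKdm5c#1 line stood apart for Cdx2 (0.51), Mina (0.026), P4ha2 (-0.35) and Rars (-0.28). Culture B of the shKdm5c#1 line stood apart for Col5a1 (-0.048), Gbp3 (-0.54), Slc1a3 (0.12) and Slc30a4 (-0.15). Culture C of the shKdm5c#1 line stood apart for Atf4 (0.60), Dhcr7 (-0.14), Esrrb (0.12), Hist1h3a (-0.32), Huwe1 (0.22) and Socs3 (0.12). Culture D of the shKdm5c#1 line stood apart for Hist4h4 (-0.21) and Sox7 (-0.11). Culture B of the control line stood apart for Apoe (-0.012), Dcn (0.14), P4ha1 (0.10) and Snai2 (0.13). Culture C of the control line stood apart for Hist4h4 (-0.052) and Stag3 (0.037). Culture D of the control line stood apart for Kdm5c (-0.052), Lefty1 (-0.13), Nupr1 (-0.22) and S100a11 (-0.66). Of these genes, Esrrb was not called between the lines, and the others were.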

How the results depend on the processing

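No named gene turned its call to the opposite sign. The balance of all calls did turn, from more lower to more higher, under several alternatives. Among these were the authors' normalized values (1690 higher, 1663 lower), the mean of probes (1672 and 1649) and chromosome medians subtracted (1717 and 1660). Under others, such as a normexp offset of 16 (1536 and 1675), lower calls stayed more numerous. Calls for shKdm5c#1 against control numbered 3419 (1650 higher, 1769 lower) in the main fit. They numbered 419 (249 and 170) with median centring within arrays, 1944 (987 and 957) without the dye term, 812 (415 and 397) in the cultures with the sample in Cy5 alone and 1940 (1017 and 923) in those in Cy3 alone; the single-dye settings use fewer arrays, and the cause of the other changes was not tested. Genes at 1.5-fold numbered 142 and at 2-fold 23 with a normexp offset of 16, and 60 at 1.5-fold with the mean of probes. Without genes of chromosomes 8, 11, 15 and X, an alternative chosen after seeing the data, 1177 were lower and 8 passed 2-fold. Named genes called between the hairpin lines numbered 23 with median centring, and neither their count in the main fit nor the share of all genes is given here. Leaving out 1 culture gave 2791 to 3051 calls, 1347 to 1457 higher, 1386 to 1594 lower, 91 to 100 at 1.5-fold and 12 to 14 at 2-fold. With the culture letter as a replicate block 3837 genes were called, with only the 8 arrays of the 2 lines 4227 and with array weights 4345. Deviations of same-lettered cultures from the means of their lines had r from -0.03 to 0.14. For unlike letters r ran from -0.324 to -0.161 in the same dye and from -0.002 to 0.198 in the other dye. The fitted dye effect was removed first, which shifts r within a dye, so these values cannot decide whether the letters pair the cultures. Of 186 named genes called, 96 lost the call under at least 1 alternative, 93 of them with median centring. Slide and scan as a block was not run, since the files name neither. Dim spots limit calls, with 4.50 percent called among the 4581 dimmest genes.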

Other observations

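Of 76 respiratory chain subunits 15 (19.7 percent) were lower and 0 higher in shKdm5c#1. Among all genes 9.66 percent were called lower, and among the 4581 brightest 15.8 percent. Medians of the respiratory list ran from -0.0138 to 0.0386 in shKdm5c#1 cultures and from 0.0671 to 0.0741 in control cultures. Of 75 mitochondrial ribosomal proteins 16 (21.3 percent) were lower and 4 higher, and 7 of the 16 lie on chromosome 11. All 5 proteasome subunits called, 16.1 percent of 31, were lower and lie on chromosome 11. Median log2 intensities of the respiratory, mitochondrial ribosomal and proteasome families were 11.6, 10.9 and 12.3, against 7.94 for all genes. With median centring 0 of these respiratory chain, mitochondrial ribosomal and proteasome calls held.

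Of 13 septins, which form filaments at the cell cortex, 5 were higher and 1 lower, where 9.01 percent of all genes were called higher. Of 36 Hox genes 1 was higher and 5 (13.9 percent) lower, near the 9.66 percent of all genes called lower. Olfactory receptors, which stem cells are not known to use, were called in 9 genes higher and 12 lower of 885, or 2.37 percent. Calls took in 18.7 percent of all genes and 4.50 percent of the 4581 dimmest.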
